A study of Homo sapiens with 12 samples.

Results

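The genes described here are FLOT2, FLOT1, OLFM2, BEX3, NEURL1B, MAPK15, SUCNR1, TRIOBP and RBM23, 9 of the 58174 genes in the deposited table. They were selected on their measured decreases with dolastatin 15 against solvent, as membrane, secreted and receptor genes with large falls, and FLOT1 was added as the paralogue of FLOT2. The cells were HCT116, an established human colorectal carcinoma line, and dolastatin 15 is a peptide first isolated from a sea hare that stops tubulin from forming microtubules. The 6 groups were 20 nM, 100 nM or solvent alone, each for 16 h or 24 h, with 2 libraries per group. All 6 shared the medium with 5% serum and 0.25% DMSO. Treatments were in duplicate, and nothing says that duplicates came from separate cultures. The p-values here therefore speak only of how far these samples spread, and that spread may be technical. By the numbers of the table, solvent libraries are 5 and 6 (16 h) and 11 and 12 (24 h). The 20 nM libraries are 1 and 2 (16 h) and 7 and 8 (24 h), and the 100 nM libraries are 3 and 4 (16 h) and 9 and 10 (24 h).

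The working name of the set, genes lowered by every dose and time, held for 6 of the 9. FLOT2, OLFM2, BEX3, NEURL1B, TRIOBP and SUCNR1 were below solvent in all 4 drug groups. RBM23 and MAPK15 were low in both 16 h drug groups, but at 24 h with 20 nM they stood at the solvent level. FLOT1 was at 98.8% to 107.2% of its solvent mean in every drug group. Nor are all 9 products membrane, secreted or receptor proteins, since RBM23 is a nuclear RNA-binding protein, MAPK15 a kinase and TRIOBP an actin-binding protein. Because the decreases chose the genes, the members' comparisons with solvent are given as a description. For the members p-values are given only for dose against dose, solvent against solvent and the difference of the drug effect between times. These use the same libraries that chose the genes, so they are not independent of the choice either, and the counts of members called in them support nothing beyond the values themselves.

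Flotillins are scaffold proteins that insert into the inner side of cholesterol-rich patches of the plasma membrane and of endosomes, where FLOT1 and FLOT2 form mixed oligomers. The other genes act in separate systems. OLFM2 is a secreted glycoprotein, SUCNR1 the cell surface receptor for succinate, NEURL1B a ubiquitin ligase for Notch ligands and BEX3 a small adaptor of the p75 neurotrophin receptor. In dividing cells a tubulin binder halts mitosis, and HCT116 cells in culture are a growing epithelial population.

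The libraries resembled each other in their overall measures. FPKM sums ran from 911720.3 to 1049886, between 20368 and 21519 genes were above 0, and mitochondrially encoded genes made up 17.9% to 25.8% of the sum. At 24 h that mitochondrial share was 17.9% and 18.6% in solvent, 23.8% and 25.8% with 20 nM and 18.8% and 20.7% with 100 nM, and its part in the results below was not tested. Of 8 epithelial markers 7 reached 1 FPKM and their sum was 1285 to 1471 FPKM. None of 4 leukocyte and 3 endothelial markers reached 1 FPKM (sums of 0.48 to 1.22 and 0.05 to 0.4), and of 4 fibroblast markers only COL1A1 did, at 1.44 to 4.34. These are bulk samples, so fewer cells of a kind and less RNA per cell cannot be told apart. Low values of genes with a single annotated transcript fell on steps of whole fragments, which put the libraries at an estimated 27800000 to 42600000 fragments.

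To show what lies before genes of the different patterns, the stretch before the start site is printed for FLOT1, whose level was flat, for OLFM2 and BEX3, which were low in all drug groups, and for SUCNR1, which was partly back toward solvent at 24 h. The sequences are RefSeq windows on GRCh38.p14, 5′ to 3′ on the strand of the gene, trimmed to bases that no GENCODE 29 exon covers. They lie at chr6:30742734-30742928 on the minus strand, chr19:9936553-9936765 on the minus strand, chrX:103376073-103376322 on the plus strand and chr3:151873393-151873642 on the plus strand. Capitals mark matches, on either strand and overlaps included, to the GC box GGGCGG, the CCAAT box CCAAT, the E-box CACGTG, the TEAD site GGAATG and the cell cycle homology element TTTGAA.
FLOT1: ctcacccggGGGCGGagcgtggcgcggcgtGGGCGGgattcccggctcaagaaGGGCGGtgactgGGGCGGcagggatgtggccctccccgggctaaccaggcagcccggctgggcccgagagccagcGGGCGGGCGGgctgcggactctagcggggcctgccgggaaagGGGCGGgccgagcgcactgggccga
OLFM2: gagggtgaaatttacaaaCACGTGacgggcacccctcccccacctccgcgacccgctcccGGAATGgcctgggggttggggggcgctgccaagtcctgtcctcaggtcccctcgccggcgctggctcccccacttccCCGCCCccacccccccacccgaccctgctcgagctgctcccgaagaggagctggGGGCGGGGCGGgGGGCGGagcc
BEX3: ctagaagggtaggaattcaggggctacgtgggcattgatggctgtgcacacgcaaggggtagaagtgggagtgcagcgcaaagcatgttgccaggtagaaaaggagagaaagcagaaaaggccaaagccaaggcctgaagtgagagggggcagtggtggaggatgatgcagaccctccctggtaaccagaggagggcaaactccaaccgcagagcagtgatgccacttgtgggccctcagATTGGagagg
SUCNR1: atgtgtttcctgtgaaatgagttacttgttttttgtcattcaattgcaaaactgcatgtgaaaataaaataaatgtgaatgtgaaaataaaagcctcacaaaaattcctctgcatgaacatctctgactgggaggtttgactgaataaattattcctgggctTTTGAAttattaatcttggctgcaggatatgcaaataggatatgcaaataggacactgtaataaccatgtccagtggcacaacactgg

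Of the 250 bases before the start, G and C made up 76.8% for FLOT1, 73.2% for OLFM2, 56.4% for BEX3 and 35.2% for SUCNR1, against a median of 58% over 35116 RefSeq windows. FLOT1 had 8 GC boxes there and OLFM2 had 5, and a GC box was present in 42.6% of all windows. BEX3 and SUCNR1 had none. The CCAAT box of BEX3 is a match found in 32% of windows, the E-box of OLFM2 in 6.34%, its TEAD site in 11.9% and the TTTGAA element of SUCNR1 in 13.3%. NEURL1B, with 78.4% G and C, also had 1 TTTGAA and 3 GC boxes. FLOT2 and TRIOBP each had 1 match to the AP-1 site TGANTCA, present in 6.57% of windows, and RBM23 had 4 CCAAT boxes. The TATA box TATAAA (10.7% of windows), the cAMP response element TGACGTCA (1.65%) and the E2F sites TTTGGCGC (0.55%) and TTTCCCGC (1.39%) matched none of the 8 members in the RefSeq table. The members thus shared no motif of the 10 searched across all 8 windows, and a match describes letters only.

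FLOT2 (ENSG00000132589, GRCh38 chromosome 17, 28879335 to 28897679, minus strand) was expressed at 50.28 and 47.15 FPKM in solvent at 16 h and at 51.49 and 50.95 FPKM in solvent at 24 h. FPKM are fragments scaled to transcript length and library size. At 16 h the drug libraries held 25.03 and 25.39 FPKM with 20 nM and 24.36 and 24.94 FPKM with 100 nM. At 24 h they held 27.53 and 27.28 FPKM with 20 nM and 18.23 and 18.43 FPKM with 100 nM. All 8 drug libraries lay far below all 4 solvent libraries, and both doses gave close to the same level at 16 h but not at 24 h. On the log2(FPKM + 1) scale the changes against solvent were -0.92 and -0.95 at 16 h and -0.88 and -1.43 at 24 h, for 20 nM and 100 nM in turn, each with an SE of 0.04.

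FLOT1 (ENSG00000137312, chromosome 6, 30727709 to 30742733, minus strand), the partner of FLOT2 in flotillin oligomers, did not share this fall. Its values were 59.52 and 59.5 FPKM in solvent, 62.91 and 64.72 with 20 nM and 61.7 and 64.45 with 100 nM at 16 h. At 24 h they were 64.88 and 67.87 in solvent, 70.81 and 65.94 with 20 nM and 65.42 and 65.74 with 100 nM. The 16 h drug libraries were slightly above their solvent libraries and the 24 h groups overlapped. Its log2 changes were 0.10, 0.08, 0.04 and -0.02 (SE 0.05) in the same order of groups, none called, but the 24 h signs depended on scaling. After rescaling to a common sum they were -0.14 with 20 nM, then called lower, and -0.11 with 100 nM, and with median-of-ratios scaling they were 0.04 and 0.02. The ratio of FLOT2 to FLOT1 FPKM, which no scaling of a library alters, was 0.751 to 0.845 in the 4 solvent libraries, 0.387 to 0.414 in the 6 libraries of both 16 h doses and of 20 nM at 24 h, and 0.279 and 0.28 with 100 nM at 24 h. FLOT1 lies 2283 bases from TUBB, the main beta-tubulin gene, on the opposite strand, and the log2 changes of TUBB were -1.04 and -1.15 at 16 h and -0.45 and -0.87 at 24 h. IER3, an early response gene that ends 466 bases before FLOT1 begins, on the same strand, had 0.05 (not called), -0.23, 0.45 and 0.62. DHRS13, on the strand of FLOT2, ends 102 bases before FLOT2 begins and was not called in any drug comparison.

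**Figure D1:**
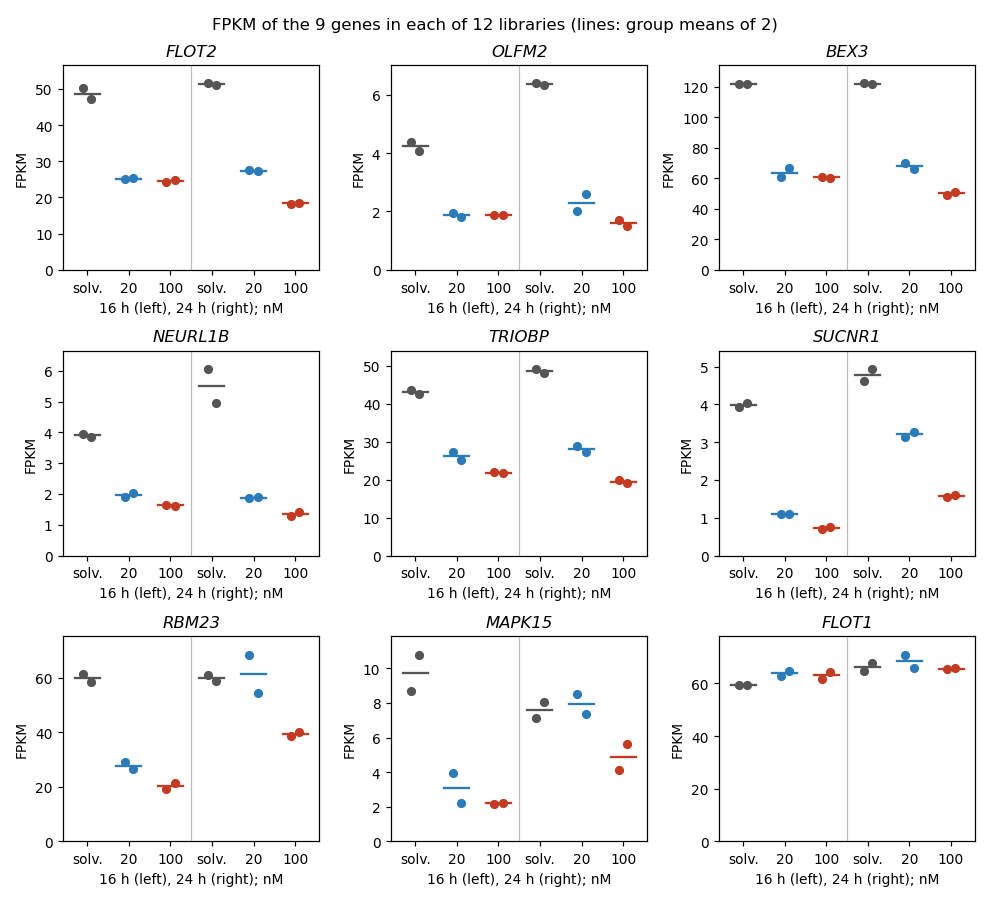
FPKM (vertical axes, linear from 0) of each of the 9 genes in the 12 libraries, by dose and time, with 1 point per library and a line at each group mean of 2. FLOT2, OLFM2, BEX3, NEURL1B, TRIOBP and SUCNR1 are below solvent in every drug group, RBM23 and MAPK15 are at the solvent level with 20 nM at 24 h, and FLOT1 stays between 59.5 and 70.81 FPKM.

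OLFM2 (ENSG00000105088, chromosome 19, 9853718 to 9936552, minus strand), the secreted olfactomedin, was a low-expressed gene whose solvent level differed between times. Solvent libraries held 4.4 and 4.09 FPKM at 16 h and 6.39 and 6.34 FPKM at 24 h. With 20 nM the values were 1.94 and 1.82 at 16 h and 2 and 2.61 at 24 h, and with 100 nM they were 1.89 and 1.87 at 16 h and 1.71 and 1.5 at 24 h. Drug levels at 16 h overlapped between doses, and the lowest solvent library was above every drug library. The log2 changes of (FPKM + 1) were -0.86 with either dose at 16 h and -1.16 and -1.50 at 24 h (SE 0.10). Mean FPKM, without the added 1, was 44.29% of the solvent mean at 16 h and 36.21% and 25.22% at 24 h.

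BEX3 (ENSG00000166681, chromosome X, 103376340 to 103378077, plus strand), the adaptor of the p75 receptor linked to cell death signalling, was the most abundant of the 9 per transcript length in solvent, while in each drug group the mean FPKM of FLOT1 was higher. It measured 122.03 and 121.82 FPKM in solvent at 16 h and 122.19 and 121.58 at 24 h, so the 4 solvent libraries were nearly equal. Drug libraries held 60.73 and 66.62 with 20 nM and 61.01 and 60.11 with 100 nM at 16 h. At 24 h they held 70.03 and 65.96 with 20 nM and 49.15 and 51.33 with 100 nM. The doses overlapped at 16 h and were apart at 24 h. The log2 changes were -0.93 and -0.998 at 16 h and -0.83 and -1.26 at 24 h (SE 0.05).

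NEURL1B (ENSG00000214357, chromosome 5, 172641266 to 172691540, plus strand), a ligase that promotes the uptake of Notch ligands into the cell, was at 3.96 and 3.84 FPKM in solvent at 16 h and at 6.05 and 4.96 at 24 h. It read 1.91 and 2.04 with 20 nM and 1.65 and 1.61 with 100 nM at 16 h, then 1.86 and 1.89 with 20 nM and 1.3 and 1.41 with 100 nM at 24 h. All drug groups were apart from solvent, and the solvent libraries at 24 h were the most spread. In log2 terms it changed by -0.72, -0.90, -1.17 and -1.46 (SE 0.10), in the order 20 nM and 100 nM at 16 h, then 20 nM and 100 nM at 24 h. An antisense gene, AC027309.1, shares 383 exonic bases with NEURL1B and was listed at 0 to 0.77 FPKM. As the strand setting of the counting is unknown here, their reads cannot be told apart over those bases.

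TRIOBP (ENSG00000100106, chromosome 22, 37696988 to 37776556, plus strand), which bundles actin filaments and binds the exchange factor TRIO, was lower at the higher dose at both times. Solvent libraries held 43.57 and 42.65 FPKM at 16 h and 49.05 and 48.15 at 24 h. With 20 nM it was at 27.25 and 25.17 and then 28.94 and 27.37, and with 100 nM at 22 and 21.74 and then 19.81 and 19.16. No library of 100 nM reached a library of 20 nM at either time. Its log2 changes were -0.70 and -0.95 at 16 h and -0.77 and -1.28 at 24 h (SE 0.05). Of its distinct stretches of 50 bases, 31.6% also occur in other annotated genes, nearly all in the overlapping Z83844.1, which was listed at 0 to 0.06 FPKM. How the counting split such reads cannot be seen in the table.

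SUCNR1 (ENSG00000198829, chromosome 3, 151873643 to 151884619, plus strand), the G protein-coupled receptor through which extracellular succinate signals, reached the lowest FPKM of the 9. It was at 3.94 and 4.05 FPKM in solvent, 1.1 and 1.1 with 20 nM and 0.7 and 0.76 with 100 nM at 16 h. At 24 h it was at 4.62 and 4.93 in solvent, 3.15 and 3.26 with 20 nM and 1.54 and 1.59 with 100 nM. The groups of each time did not overlap, and each dose left a higher level at 24 h than at 16 h. The log2 changes of (FPKM + 1) were -1.25 and -1.53 at 16 h and -0.46 and -1.17 at 24 h (SE 0.08). Mean FPKM, without the added 1, was 27.53%, 18.27%, 67.12% and 32.77% of the solvent mean in the same order. SUCNR1 has 1 annotated transcript, so its fragments can be estimated: about 89 and 82 with 100 nM at 16 h (95% Poisson intervals 71.5 to 110 and 65.2 to 102) against 465 and 521 in solvent (424 to 509 and 477 to 568). These intervals cover counting error only.

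RBM23 (ENSG00000100461, chromosome 14, 22893206 to 22919184, minus strand), an RNA-binding protein close in sequence to the splicing cofactor RBM39, was lowered at 16 h and back at solvent at 24 h with the lower dose. Its solvent values were 61.26 and 58.31 FPKM at 16 h and 61.15 and 58.71 at 24 h. With 20 nM it measured 28.99 and 26.41 at 16 h but 68.29 and 54.53 at 24 h, the latter on both sides of the solvent libraries. With 100 nM it measured 19.26 and 21.49 at 16 h and 38.67 and 40.17 at 24 h, below solvent at both times. Against solvent its log2 changes were -1.08 and -1.51 at 16 h and 0.03 (-0.16 after rescaling to a common sum) and -0.59 at 24 h (SE 0.10). PRMT5-AS1, antisense to RBM23 over 186 exonic bases, was listed at 0.03 to 0.36 FPKM.

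MAPK15 (ENSG00000181085, chromosome 8, 143716259 to 143722458, plus strand), an atypical MAP kinase linked to autophagy and cilia, had the same shape with more spread between libraries. It was at 8.7 and 10.77 FPKM in solvent, 3.97 and 2.21 with 20 nM and 2.15 and 2.23 with 100 nM at 16 h. At 24 h it was at 7.15 and 8.03 in solvent, 8.51 and 7.38 with 20 nM and 4.1 and 5.61 with 100 nM. The 24 h libraries of 20 nM overlapped solvent, and those of 100 nM lay below it. The log2 changes were -1.42 and -1.74 at 16 h and 0.06 (-0.11 after rescaling to a common sum) and -0.56 at 24 h, with an SE of 0.20, the largest of the 9. After rescaling MAPK15 was called lower with 100 nM at 24 h, at -0.65.

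Counted by the call (limma, Benjamini-Hochberg adjusted p under 0.05 over 13458 tested genes, all 9 members among them), 8 members were lower with 20 nM and 8 with 100 nM at 16 h, and 6 and 7 at 24 h, and none was higher. The missing calls were those of FLOT1 throughout and of MAPK15 at 24 h at both doses and RBM23 at 24 h with 20 nM. Of all tested genes 11% and 14.7% were called lower at 16 h and 14.1% and 18.4% at 24 h, and 6.78%, 9.16%, 14.7% and 15.4% were called higher in the same order. That split depended on scaling: the share of calls that were higher was 38.2%, 38.5%, 51.1% and 45.6%, but 38.3%, 27.7%, 10.9% and 23.4% after rescaling to a common sum and 50.4%, 50.4%, 51.4% and 54.1% with median-of-ratios scaling. Since the members were chosen by these comparisons, nothing is read from that difference. The median log2 change of the 9 was -0.92, -0.95, -0.77 and -1.26, beside -0.02, -0.03, 0.00 and -0.02 over all tested genes. In all, 494 tested genes (3.67%) were called lower in all 4 comparisons, among them 6 members. Ranked by their smallest decrease over the 4 comparisons, FLOT2 was 4, OLFM2 6, BEX3 8, NEURL1B 16, TRIOBP 20 and SUCNR1 122 of 13458. RBM23 at 4075, MAPK15 at 4820 and FLOT1 at 5894 lay in the middle. The selection named no numeric threshold. The protein-coding genes next to the members called in all 4, with their smallest decreases, were STARD4 (-0.87) between FLOT2 and OLFM2, CRTAP (-0.85) between OLFM2 and BEX3, and GMPR (-0.83) after BEX3. ADGRG6 (-0.78) and ARL6IP1 (-0.71) stood around NEURL1B, ETV2 (-0.70) and TMEM92 (-0.69) around TRIOBP, and AURKB and DDX17 (-0.46 each) around SUCNR1.

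**Figure D2:**
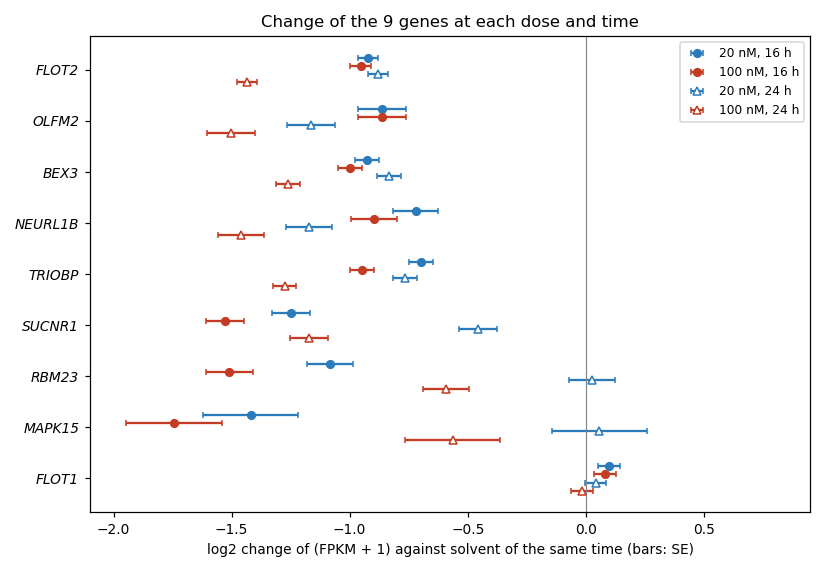
Log2 change of (FPKM + 1) against solvent of the same time (horizontal axis, bars are SE) for each of the 9 genes, with circles for 16 h, triangles for 24 h, blue for 20 nM and red for 100 nM. The 24 h triangles of 20 nM lie at 0.03 for RBM23 and 0.06 for MAPK15, while the 100 nM triangles of FLOT2, OLFM2, BEX3, NEURL1B and TRIOBP are the leftmost of their rows.

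Whether the higher dose lowered the genes further was tested by setting 100 nM against 20 nM. At 24 h, 5 of the 9 were called lower with 100 nM and none higher, where 4.88% of all tested genes were called in either direction. These libraries also chose the members, so nothing is read from the members' share against that of all genes. FLOT2 was lower with 100 nM by a log2 difference of -0.56 (limma adjusted p = 0.0011) and SUCNR1 by -0.71 (0.00405). For TRIOBP the difference was -0.51 (0.00244), for BEX3 -0.43 (0.00521) and for RBM23 -0.62 (0.0143). In each of these the libraries of the doses did not overlap. How many of all tested genes do so was not counted, so nothing is read from that. OLFM2 (-0.34, adjusted p = 0.0929), NEURL1B (-0.29, 0.118) and MAPK15 (-0.62, 0.11) had lower values with 100 nM that did not pass, and FLOT1 differed by -0.06 (0.479). The call of FLOT2 held in every alternative run. With the libraries of 24 h alone, which leaves fewer samples, adjusted p was 0.0507 for BEX3 and for TRIOBP, 0.0564 for SUCNR1 and 0.0825 for RBM23. Without library 9 BEX3 (0.0639) and RBM23 (0.105) were not called, nor was RBM23 without library 10 (0.0765), and without library 7 OLFM2 was called (0.0245).

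At 16 h none of the 9 was called between doses by limma, and 0.320% of all tested genes were. At an unadjusted p under 0.05 stood 3 members, SUCNR1 (-0.28, adjusted p = 0.215), TRIOBP (-0.25, 0.0938) and RBM23 (-0.43, 0.126), each lower with 100 nM. Without library 7 or library 8 RBM23 was called (adjusted p = 0.0404 and 0.0402). For FLOT2 the difference was -0.03 with a 95% interval of -0.13 to 0.07, for BEX3 -0.07 with an interval of -0.18 to 0.04 and for OLFM2 0.00 with an interval of -0.23 to 0.23. All of these intervals contain 0, and that of FLOT2 does not reach the difference seen at 24 h.

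Some members differed between the solvent groups of 16 h and 24 h, where time cannot be told apart from other differences between these libraries. OLFM2 was higher at 24 h than at 16 h by 0.49 (limma adjusted p = 0.0297) and NEURL1B by 0.40 (0.0456), so 2 of 9 rose, where 5.62% of all tested genes were called. The call of OLFM2 was lost without library 5 (0.117), 6 (0.122), 11 (0.109) or 12 (0.149). That of NEURL1B was lost, with adjusted p of 0.061 to 0.187, without any 1 of libraries 1, 2, 3, 4, 5, 6, 9, 10, 11 and 12. TRIOBP (0.17) and FLOT1 (0.15) had adjusted p of 0.0784 each, and FLOT1 was called without library 7 (0.0409) or 8 (0.0408). After rescaling to a common sum FLOT1 (0.21, limma adjusted p = 0.0259) and TRIOBP (0.22, 0.0398) were called. With no filter on low values neither OLFM2 (0.0778) nor NEURL1B (0.104) was. NEURL1B was also not called with a pseudocount of 0.1 (0.0579) or 0.5 (0.052), or with the solvent libraries alone (0.102). FLOT2, BEX3, RBM23, SUCNR1 and MAPK15 did not pass.

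The drug effect itself changed between 16 h and 24 h, and members moved in opposite directions. With 20 nM the effect was less negative at 24 h for RBM23, by a log2 difference of 1.11 (limma adjusted p = 0.00247), for SUCNR1 by 0.79 (0.00411) and for MAPK15 by 1.48 (0.0136). These were 3 of 9, where 11.5% of all tested genes were called. After rescaling to a common sum those 3 were called and 3 more in the other direction, FLOT1 (-0.25, 0.0247), NEURL1B (-0.59, 0.0222) and TRIOBP (-0.25, 0.0492). Without rescaling NEURL1B had a difference of -0.45 (0.0641, or 0.038 with a constant prior), and FLOT2 0.04 with a 95% interval of -0.09 to 0.18. RBM23 and SUCNR1 held in every alternative that tested them, MAPK15 was not called without library 11 (0.0523), and NEURL1B was called without library 12 (0.0438).

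With 100 nM the effect differed between times for 7 of 9, where 10.2% of all tested genes were called. Both time differences are built from the decreases that chose the members, so nothing is read from the members' share against that of all genes. The effect was deeper at 24 h for FLOT2 (-0.48, limma adjusted p = 0.00245), TRIOBP (-0.33, 0.0223), OLFM2 (-0.64, 0.026), NEURL1B (-0.56, 0.0333) and BEX3 (-0.26, 0.0492). For OLFM2 the solvent mean went from 4.245 FPKM at 16 h to 6.365 at 24 h, and the 100 nM mean from 1.88 to 1.605. For NEURL1B the solvent mean went from 3.9 to 5.505 and the 100 nM mean from 1.63 to 1.355. In both genes solvent thus moved more than the drug level. The effect was less deep for RBM23 (0.92, 0.00577) and MAPK15 (1.18, 0.0333), and SUCNR1 had 0.36 (0.0789). That value of SUCNR1, a low gene, depended on the pseudocount: it was 0.75 (0.0219) with 0.1 and 0.52 (0.0452) with 0.5, and with a constant prior the 0.36 was called (0.0165). The calls of FLOT2 and RBM23 held in every alternative. The other 5 calls were lost on leaving out single libraries. Without any 1 of libraries 3, 4, 5, 6, 9, 10, 11 and 12, adjusted p was 0.0545 to 0.0848 for OLFM2, 0.083 to 0.15 for BEX3 and 0.0553 to 0.0767 for TRIOBP. NEURL1B was not called without library 1, 2, 3, 4, 5, 6, 9, 10 or 11 (0.0528 to 0.102), and MAPK15 was not called without library 3, 4, 5, 6, 10, 11 or 12 (0.0567 to 0.104). With no filter on low values OLFM2 (0.0697), BEX3 (0.0881), NEURL1B (0.0828) and MAPK15 (0.0976) were not called, nor was BEX3 with median-of-ratios scaling (0.0515) or a constant prior (0.0795), nor NEURL1B with the libraries of these groups alone (0.0554). All of these kept their sign.

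**Figure D3:**
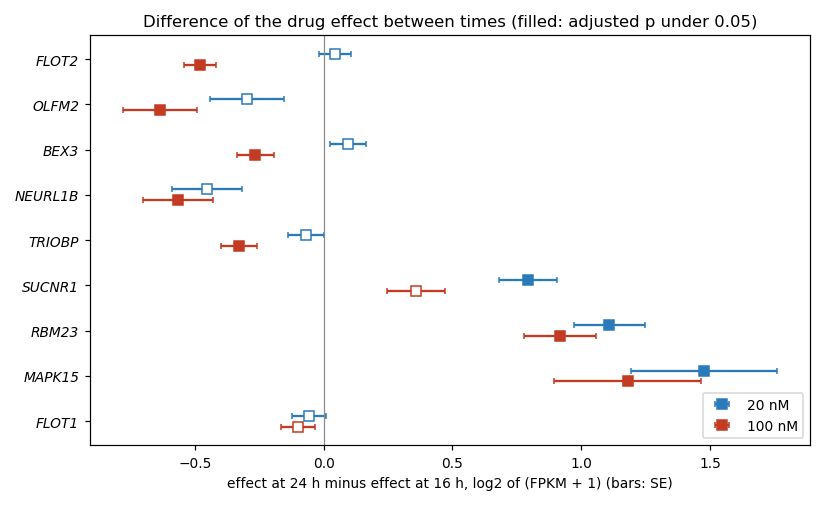
Drug effect at 24 h minus drug effect at 16 h on the log2(FPKM + 1) scale (horizontal axis, bars are SE) for 20 nM (blue) and 100 nM (red), with filled squares for an adjusted p under 0.05. RBM23 and MAPK15 lie to the right at both doses (0.92 to 1.48), and FLOT2, OLFM2, BEX3, NEURL1B and TRIOBP lie to the left with 100 nM (-0.64 to -0.26).

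Across the 12 libraries, which share groups and libraries with everything above, the members differed in likeness of their log2 values (Pearson correlation, a description with n = 12). Genes chosen for falling with the drug in these libraries correlate by that choice, so nothing is read from high values between members. FLOT2, OLFM2, BEX3, NEURL1B and TRIOBP correlated with each other at 0.94 to 0.99, and FLOT2 with BEX3 at 0.99. SUCNR1 correlated with these 5 at 0.80 to 0.85, and RBM23 and MAPK15 did at 0.59 to 0.69, so the difference was of degree. RBM23 and MAPK15 correlated at 0.96, and SUCNR1 at 0.95 with RBM23 and at 0.92 with MAPK15. FLOT2 and FLOT1 stood at -0.28. Among all tested genes those most like FLOT2 were INCENP, a chromosomal passenger subunit, BEX3 and SLFN5 (0.99 each), and those most like BEX3 were SDHA, the catalytic flavoprotein of succinate dehydrogenase, FLOT2 and LINC00963 (0.99 each). The closest to SUCNR1 were NUSAP1, a spindle-binding protein, TUBB and PATL1 (0.99 each). RBM23 was closest to SMARCAD1 (0.99), ZNF672 (0.99) and HOXB7 (0.98), and MAPK15 to SMARCAD1 (0.965), ACAA2 and DGCR8 (0.96 each). OLFM2 lay closest to DDX17 and NDRG3 (0.98 to 0.99) and RHOBTB3 (0.98), NEURL1B to FZD2, UBQLN4 and C1RL (0.98 to 0.99), and TRIOBP to IGSF9, MORC4 and ARL6IP1 (0.98 to 0.99). FLOT1 had no such close partner, with YIF1A at 0.91, AC026304.1 at 0.90 and IFITM1 at 0.88.

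Relatives of several members were set beside them. BEX2, a paralogue of BEX3 at 20.91 to 26.4 FPKM, had log2 changes of -0.15, -0.17, -0.09 and -0.14 and was not called (limma adjusted p 0.287 to 0.572). MPRIP, a relative of TRIOBP, had -0.06, -0.11, -0.04 and -0.06 (0.328 to 0.726), and NEURL1 had 0.12, 0.35, 0.03 and 0.31 (0.0937 to 0.891). RBM39 was not called at 16 h (0.08 and -0.03) and rose at 24 h by 0.34 (adjusted p = 0.00101) and 0.25 (0.00302), where RBM23 had 0.03 and -0.59. After rescaling to a common sum RBM39 was at 0.15 (0.0302) and 0.16 (0.0276) at 24 h. The difference between a member and its relative was not tested. NEURL4 passed with 20 nM at 16 h (-0.17, limma adjusted p = 0.0416) but not there under either other scaling (0.0568 and 0.084). After rescaling NEURL4 passed at 24 h with 20 nM (-0.19, 0.0205) and 100 nM (-0.21, 0.0145). MAPK6 passed in none, though after rescaling it passed with 20 nM at 24 h (-0.39, 0.0287). OLFM1 reached 0.83 FPKM and BEX4 was listed at 0, so neither was tested.

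**Figure D4:**
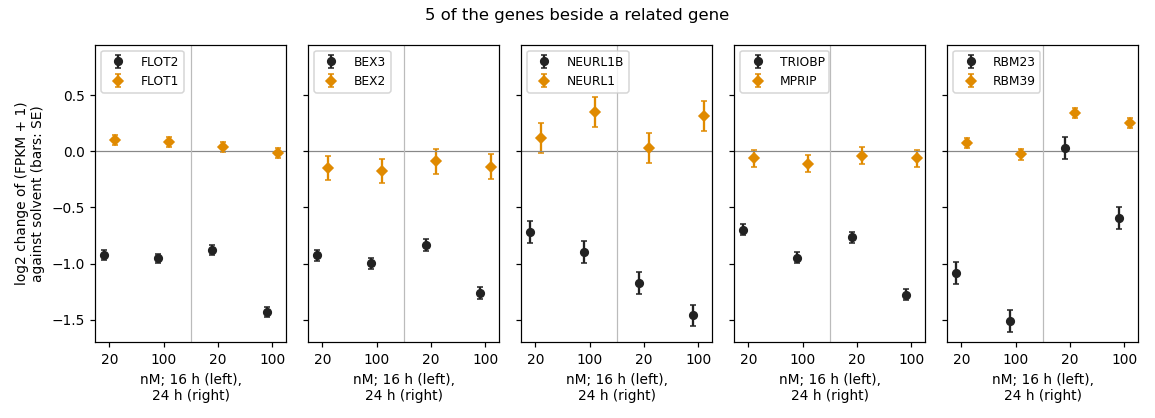
Log2 change of (FPKM + 1) against solvent (vertical axis, bars are SE) at each dose and time for FLOT2, BEX3, NEURL1B, TRIOBP and RBM23 (black circles) beside a related gene (orange diamonds). The related genes FLOT1, BEX2, NEURL1, MPRIP and RBM39 lie between -0.17 and 0.35 in every comparison.

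The wider families and partners of the members were counted from 8 lists with 93 tested genes. Of these 20, 19, 18 and 18 were called lower with 20 nM and 100 nM at 16 h and at 24 h in turn (21.5%, 20.4%, 19.4% and 19.4%, beside 11%, 14.7%, 14.1% and 18.4% of all tested genes). Called higher were 5, 6, 16 and 17 (5.38%, 6.45%, 17.2% and 18.3%, beside 6.78%, 9.16%, 14.7% and 15.4%). These shares of all tested genes stand beside each list below as well. Apart from set paralogues, the genes named from each list were picked for large changes among those called. Their adjusted p against solvent restates that choice. After rescaling to a common sum 17, 23, 42 and 36 were called lower and 6, 5, 3 and 9 higher, and with median-of-ratios scaling 14, 17, 18 and 18 lower and 6, 11, 16 and 19 higher. With 20 nM at 24 h rescaling moved some called values by over 1.5 times: HES1 to -0.46, TCEAL9 to -0.47, OGDH to -0.50, MAPK13 to -0.53, RBM14 to 0.33 and IER3 to 0.26. The counts at 16 h with 20 nM depended on single libraries: of 25 genes called in either direction, 10 were called without library 1, 11 without library 2, 10 without library 5 and 12 without library 6. With 100 nM at 16 h, 25 became 16 without library 3.

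Among membrane scaffold genes (13 tested, flotillin relatives and caveolae), EHD2, the ATPase at the neck of caveolae, fell in all 4 comparisons, by log2 changes of -0.58, -0.53, -0.59 and -0.74 (limma adjusted p at most 5.41e-05). The mitochondrial scaffold genes PHB and STOML2 passed at 24 h and not at 16 h, PHB above solvent by 0.29 and 0.35 and STOML2 by 0.28 and 0.23, but after rescaling to a common sum they were at 0.10 and 0.09 with 20 nM and not called. In solvent both were lower at 24 h than at 16 h, PHB by -0.37 (limma adjusted p = 0.0303) and STOML2 by -0.15 (0.0449). The drug means of PHB at 24 h, 464.44 and 482.34 FPKM, were below its 16 h solvent mean of 490.1. Those of STOML2, 333.17 and 321.95, were above its 305.1. In the list of membrane scaffold genes 1, 1, 3 and 3 rose and 1, 2, 2 and 1 fell, with a median between -0.02 and 0.04. After rescaling 0 and 3 rose and 5 and 4 fell at 24 h. For the olfactomedin genes only 3 were tested, of which 1, 1, 1 and 2 fell. ADGRL1, a latrophilin receptor, had -0.29 (not called with median-of-ratios scaling), -0.39, -0.20 (not called, but called at -0.38 after rescaling) and -0.32, and OLFML2A fell at 24 h by -0.42 and -0.52.

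BEX3 sits on the X chromosome beside its TCEAL relatives, a family of small proteins related to transcription elongation factors. Of 4 tested BEX and TCEAL genes 2 fell in each comparison and none rose, with medians of -0.31, -0.44, -0.20 and -0.37. TCEAL9, the next gene to BEX3 at 17878 bases on the same strand, fell by log2 changes of -0.73, -1.06, -0.29 and -0.60 (limma adjusted p 1.95e-05 to 0.0149). TCEAL8 had -0.46, -0.69, -0.15 (not called, but called at -0.33 after rescaling) and -0.53. TCEAL4 passed with 20 nM at 24 h (-0.25, 0.0339), and after rescaling also with 100 nM (-0.31, 0.0171). TCEAL9 returned partly at 24 h, with a difference of the effect between times of 0.44 (0.0247, but 0.25 and 0.0982 after rescaling) for 20 nM and 0.46 (0.0223) for 100 nM, where BEX3 had 0.09 and -0.26.

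NEURL1B belongs to the Notch system, in which ligases send ligands into the cell so that the receptor is cleaved and HES genes are switched on. Of 17 tested genes of that list 6, 4, 7 and 5 fell and 1, 1, 0 and 0 rose, where 11% to 18.4% of all tested genes were called lower and 6.78% to 15.4% higher. After rescaling 10 fell at 24 h with either dose. With 20 nM at 16 h 4 fell and 2 rose after rescaling, and 2 fell and 2 rose with median-of-ratios scaling. The medians were -0.10, -0.13, -0.06 and -0.14. MIB1, the other main ligase of Notch ligands, fell in all 4 (-0.45, -0.50, -0.50 and -0.72, limma adjusted p 0.000311 to 0.00625). NOTCH3 had -0.38 (not called with median-of-ratios scaling), -0.33 (not called, but called at -0.35 after rescaling), -0.66 and -0.74. The target gene HES1 fell by -0.19, -0.87, -0.28 and -0.31. SH3PXD2B, the neighbour of NEURL1B toward lower coordinates, had -0.28 (not called with median-of-ratios scaling), -0.25 (not called, but called at -0.28 after rescaling), -0.56 and -0.73. DUSP1, toward higher coordinates, was called higher in all 4 (0.32, 0.38, 0.26 and 0.43), but after rescaling not with 20 nM at 24 h (0.09, 0.299).

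Around SUCNR1, 12 tested genes of succinate metabolism and of related receptors had 1, 1, 3 and 6 called higher and 3, 2, 2 and 3 lower. The 24 h split depended on scaling: after rescaling to a common sum 0 and 2 were higher and 5 and 4 lower. SDHA fell in all 4 comparisons (-0.53, -0.54, -0.43 and -0.68, limma adjusted p 2.36e-05 to 0.000389), and OGDH, which makes succinyl-CoA, had -0.18, -0.04 (not called), -0.31 and -0.31. P2RY11, a nucleotide receptor, went the other way at 0.79, 0.95, 0.01 (not called) and 0.46. AADAC, the nearest protein-coding gene before SUCNR1, was not called in any drug comparison.

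For TRIOBP, 14 tested genes of TRIO signalling and actin bundling had 1, 2, 2 and 0 called higher and 3, 3, 2 and 2 lower. After rescaling, with 15 tested, none was higher and 6 and 5 were lower at 24 h. TRIO itself had 0.24, 0.46, 0.00 and 0.02 and was called with 100 nM at 16 h (limma adjusted p = 0.0186). RHOA, the GTPase that TRIO can activate, had -0.20, -0.18, -0.04 (not called, but called at -0.23 after rescaling) and -0.16, and ACTN1, an actin crosslinker, fell at 24 h by -0.39 and -0.34. Among 11 tested MAP kinases 1, 2, 2 and 2 fell and 0, 0, 2 and 0 rose, but after rescaling 7 and 5 fell at 24 h and none rose. MAPK12 was lower in all 4 (-0.21, -0.23, -0.31 and -0.30, of which the smallest did not pass under either other scaling), MAPK13 at 24 h (-0.35 and -0.51) and MAPK11 with 100 nM at 16 h (-0.50), all smaller than the 16 h changes of MAPK15.

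The list around RBM23 held RBM39 and genes of splice site recognition, 19 of 19 tested, of which 1, 1, 6 and 8 rose and 3, 3, 0 and 1 fell, where 14.7% and 15.4% of all tested genes were called higher at 24 h. The 24 h counts depended on scaling: after rescaling to a common sum 3 and 4 rose and 4 and 3 fell. RBM5, a splicing regulator with tumour suppressor activity, fell by log2 changes of -0.86 and -1.14 at 16 h (limma adjusted p = 0.000255 and 2.94e-05), was at -0.03 (0.791) with 20 nM at 24 h and fell by -0.38 (0.00729) with 100 nM. Its effect differed between times by 0.82 and 0.76, both called, beside 1.11 and 0.92 for RBM23. RBM14 rose in all 4 (0.47, 0.36, 0.52 and 0.69), and SRSF7 passed with 100 nM at 24 h (0.30), but not after rescaling (0.20, adjusted p = 0.145). PRMT5, 1327 bases from RBM23 on the same strand, was not called at 16 h (0.01 and 0.16) and rose at 24 h by 0.42 and 0.34, calls that were lost after rescaling (0.24 and 0.25, adjusted p of 0.0876 and 0.0786).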

How the data were processed

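Per the labels' protocols, poly(A)-selected RNA was made into directional libraries and sequenced in paired reads. The authors deposited FPKM per gene and library, rounded to 2 decimals, and the submitters' processing notes name RSEM 1.2.28 and GRCh38. Not given in the sources used here are the aligner, the annotation and the strand setting. Columns carry group and library number but not the sample numbers of the labels. GENCODE 29 gave symbols for 57836 of 58174 genes. Genes with at least 1 FPKM in at least 2 libraries (13458) entered limma 3.58.1 in R 4.3.3 on log2(FPKM + 1), a scale that understates the change of low genes. The fit had 6 group means over all 12 libraries, a mean-dependent prior, 9 two-sided contrasts, 6 residual and 2.98 prior degrees of freedom, and Benjamini-Hochberg adjustment over all tested genes, and was tested on simulated data. Depth was estimated from steps of whole fragments in low FPKM of genes with 1 transcript, with the mean fragment length (320 bases) and each library's step both fitted to make the steps sharpest (90.5% to 93.5% of values were then within 0.2 of a whole number). RefSeq windows matched 8 of 9 members. The value of 1 epithelial marker is not reported here.

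The members and the lists were chosen with earlier results of these data known. Named were the 9 members, from each list the 3 genes with the largest mean change among those called in a drug comparison, set paralogues, the 3 genes most like each member, the protein-coding gene next in rank, and the nearest protein-coding neighbours. Alternatives were pseudocounts of 0.1 and 0.5, no filter, a minimum of 5 FPKM, rescaling to a common sum, median-of-ratios scaling, a constant prior, only the libraries of the groups or time point, and leaving out each library.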

Additional observations from a re-analysis of the deposited data

Results flagged for a closer look

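The effect of dolastatin 15 differed between 16 h and 24 h, by limma's test of the difference itself (adjusted p under 0.05), in 10 cases. With 20 nM the effect at 24 h minus that at 16 h was 1.477 for MAPK15, 0.793 for SUCNR1 and 1.11 for RBM23. With 100 nM it was 1.181 for MAPK15 and 0.917 for RBM23, and -0.4797 for FLOT2, -0.6363 for OLFM2, -0.2645 for BEX3, -0.5635 for NEURL1B and -0.3283 for TRIOBP. On the log2(FPKM + 1) scale used, a positive value means a smaller decrease at 24 h and a negative value a larger one. Each decrease is against the solvent of the same time, and for OLFM2 and NEURL1B the solvent level itself was higher at 24 h. The calls of FLOT2 with 100 nM, SUCNR1 with 20 nM and RBM23 at both doses held in every alternative that tested them. Each of the others was lost in 1 or more. The differences come from the libraries that chose the genes. No group had the 4 samples that a check for a library far from the rest would need.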

How the results depend on the processing

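Groups of 2 libraries limit every call, and leaving out 1 library leaves a group with a lone library that is assumed to vary like the others. NEURL1B and SUCNR1 are not tested at a minimum of 5 FPKM. Rescaling to a common sum moved the median of all tested genes to -0.16 (20 nM) and -0.11 (100 nM) at 24 h. There MAPK15, RBM23 and FLOT1 read -0.11, -0.16 and -0.14 with 20 nM, and 0.05, 0.00 and 0.02 relative to that median. FLOT1 with 100 nM at 24 h was 0.02 under median-of-ratios scaling. No paired analysis was possible because the columns carry no sample numbers of the labels.

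Leaving out each library in turn gave these counts of members called: 0 to 1 (0 in full) between doses at 16 h, 3 to 6 (5) between doses at 24 h, 0 to 3 (2) between solvent groups, 2 to 4 (3) for the 20 nM and 2 to 7 (7) for the 100 nM difference between times. Related genes called ranged from 10 to 28 (25) and 16 to 29 (25) at 16 h and from 23 to 35 (34) and 25 to 41 (35) at 24 h. With the 24 h libraries alone the 5 dose calls became 1. The 2 solvent calls became 1 with a pseudocount of 0.1 or 0.5, at 5 FPKM or with the solvent libraries alone, 0 without filter and 4 after rescaling. The 20 nM count became 6 after rescaling and the 100 nM count 3 without filter.

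Signs that turned belonged to uncalled differences near 0. Between doses at 16 h OLFM2 read -0.0247 after rescaling and -0.0298 (without library 2) to 0.0304 (without 1) on leaving out libraries, and FLOT1 -0.0477 (without 4) to 0.0142 (without 3). Between doses at 24 h FLOT1 read 0.0322 after rescaling. Between solvents BEX3 read 0.0506 after rescaling and -0.0041 to 0.0031 (without 12) on leaving out libraries, and RBM23 -0.0263 under median-of-ratios scaling and -0.0314 (without 6) to 0.0386. For the 20 nM difference FLOT2 read -0.1402 after rescaling and -0.001 (without 5) to 0.0899, and BEX3 -0.0935 after rescaling. Of 890 repeated tests of single members 786 kept sign and side of the threshold.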
